A study of Mus musculus with 14 samples.

Results

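The insulin-like growth factor (IGF) binding proteins, the proteases that cut them and an inhibitor of those proteases were described in the intervertebral discs of 2 mouse models of type 2 diabetes. The set was chosen by gene symbol and held 10 genes of the 55487 in the deposited count table, namely *Igfbp2*, *Igfbp3*, *Igfbp4*, *Igfbp5*, *Igfbp6*, *Igfbp7*, *Pappa*, *Pappa2*, *Htra1* and *Stc2*. All 10 passed the minimum on low counts, as did 16915 genes of the whole table. RNA was sequenced from 14 male mice, and 5 discs of the tail were pooled per mouse. The db/db mice (n = 3) were homozygous for a mutant leptin receptor gene, and their db/+ littermates (n = 3) carried 1 copy of it. Both db groups were 3 months old, and their background strain was not given in the sources used here. The STZ-HFD mice (n = 4) and the Con+Veh mice (n = 4) were skeletally mature C57BL/6 animals, and the series' design text gives C57BL/6J wild-type mice as the controls. STZ-HFD mice ate a high-fat diet for 4 to 6 weeks, received a single injection of streptozotocin (STZ, a toxin of the insulin-producing beta cell) at 100 mg/kg, and stayed on the diet for another 12 weeks. Con+Veh mice ate standard chow and received the citrate buffer alone. The leptin receptor mutation is germline and so is present in every cell of these mice. Each diabetic group was compared with the control of its own cohort, and the responses of both models were then set against each other.

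IGF1 and IGF2 are growth factors that act through the IGF1 receptor, and in the disc they are known to promote matrix synthesis and cell survival. Most IGF in tissue is held by binding proteins of the IGFBP family, which keep the ligand from its receptor and, in some settings, deliver it. Proteases such as the pappalysins and HTRA1 cleave certain IGFBPs and release the ligand, and stanniocalcins block the pappalysins.

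Sequences upstream of the transcription start are shown for the 3 genes whose libraries did not overlap between a diabetic group and its control, which are *Igfbp6* and *Igfbp2* in the STZ-HFD comparison and *Igfbp3* in the db/db comparison. Each is the 250 bases before the RefSeq start on build GRCm38.p6, read 5′ to 3′ on the strand of the gene. Capitals mark matches on either strand. The motifs searched were the GC box, spelled GGGCGG, and the TATA box, spelled TATAAA. A forkhead motif was also searched as GTAAACA, an AP-1 motif as TGACTCA and an E-box as CACGTG, and no matches shown overlapped.
*Igfbp6* (chr15:102143936-102144185, plus strand): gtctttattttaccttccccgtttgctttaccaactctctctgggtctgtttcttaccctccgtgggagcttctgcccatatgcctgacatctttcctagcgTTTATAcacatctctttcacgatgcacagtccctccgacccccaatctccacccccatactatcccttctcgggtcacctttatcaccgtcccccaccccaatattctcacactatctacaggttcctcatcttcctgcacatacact
*Igfbp3* (chr11:7213924-7214173, minus strand): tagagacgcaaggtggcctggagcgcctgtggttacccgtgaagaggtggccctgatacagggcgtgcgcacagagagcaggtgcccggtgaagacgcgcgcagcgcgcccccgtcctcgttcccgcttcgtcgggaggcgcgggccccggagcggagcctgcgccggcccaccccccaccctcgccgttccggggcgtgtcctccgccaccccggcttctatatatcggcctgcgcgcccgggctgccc
*Igfbp2* (chr1:72824230-72824479, plus strand): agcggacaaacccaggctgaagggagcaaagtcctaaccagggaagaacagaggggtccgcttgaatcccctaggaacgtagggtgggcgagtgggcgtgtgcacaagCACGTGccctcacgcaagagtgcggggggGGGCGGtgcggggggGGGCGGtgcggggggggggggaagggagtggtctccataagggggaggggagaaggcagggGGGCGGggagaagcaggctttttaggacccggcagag
The *Igfbp6* window held 1 TATA match on the other strand, at -148 from the start, and its GC content was 49.6%. The *Igfbp2* window held 3 GC boxes, at -113, -98 and -37, and 1 E-box at -142, with a GC content of 67.2%. A second RefSeq start of *Igfbp2*, whose window (chr1:72825137-72825386) is not printed, had a GC content of 56.4% and 1 AP-1 match at -39. None of the 5 motifs was found in the *Igfbp3* window, whose GC content was 73.2%. Over the 32851 RefSeq promoters of the same length the median GC content was 52.4%, and the GC box was present in 32.7%, the TATA box in 12.4%, the forkhead motif in 3.17%, the AP-1 motif in 4.46% and the E-box in 6.02%. Of the 10 genes, 9 had an entry in the RefSeq table, and *Pappa* was the one without. Among the others, *Igfbp7* held 4 GC boxes, *Htra1* held 1, and *Igfbp4* held a TATA match at -28. A match describes letters and not a site in use.

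Libraries held 16076908 to 58943169 counts, of which 28.1% to 60.2% fell on ribosomal RNA genes and 0.0598% to 0.256% on the 10 genes. Levels are given as CPM, the counts of a gene relative to the library total after scaling by TMM factors, and 3 counts correspond to 0.0509 to 0.187 CPM before that scaling, which covers counting error only. STZ-HFD replicate 1 was the shallowest library and had a TMM factor of 1.58, and limma gave Con+Veh replicate 1 the lowest quality weight, 0.275, against 3.05 for Con+Veh replicate 3. The labelled tissue was checked with marker genes. The notochordal transcription factor *T* was found at 34.4 ± 9.84 CPM in db/db and 158 ± 127 in db/+ (SD, n = 3). It was at 117 ± 54.1 CPM in STZ-HFD and 168 ± 115 in Con+Veh (SD, n = 4). The disc and cartilage proteoglycan *Acan* stood at 3200 ± 1260, 6640 ± 2510, 521 ± 263 and 1350 ± 290 CPM in the same order. The nucleus pulposus markers *Noto* and *Shh* did not pass the minimum on low counts in this series. *Noto* had at most 6 counts in any library, and *Shh* at most 4 outside STZ-HFD, where its highest count was 58. Skeletal muscle markers summed to 2560 to 4340 CPM in db/db, 4060 to 7740 in db/+, 6950 to 9340 in Con+Veh and 6950 to 18300 in STZ-HFD, so the dissected material held muscle. Cartilage markers summed to 1410 to 3330 CPM in Con+Veh and 622 to 1320 in STZ-HFD, and adipocyte markers to 420 to 918 and 933 to 1060, so neither pair of ranges overlapped. Most single markers did overlap. Libraries were separate for 2 of 7 tested cartilage genes and 1 of 7 adipocyte genes, where 1.97% of all genes were higher and 2.77% lower in this way. *Cfd* had the highest mean of the adipocyte list in both groups, 343 CPM in Con+Veh and 509 in STZ-HFD. In whole discs, fewer cells of a type and less RNA per cell cannot be told apart.

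Levels were compared between genes per kb of exon length. *Igfbp4*, *Igfbp5*, *Igfbp6*, *Igfbp7* and *Htra1* had the 5 highest means of the 10 genes in every group, and *Pappa2* had the lowest mean in every group. In Con+Veh the order began with *Igfbp5* at 138 ± 40.3 CPM per kb and *Igfbp7* at 113 ± 46.8 (SD, n = 4), which did not differ beyond their spread. *Igfbp6* followed at 75.7 ± 21.1 and *Igfbp4* at 55.9 ± 32.8 CPM per kb, again within their spread. *Htra1* stood at 19.6 ± 5.78 CPM per kb, and *Igfbp3* at 2.73 ± 1.04, *Stc2* at 2.01 ± 0.518, *Pappa* at 1.32 ± 0.470, *Igfbp2* at 0.636 ± 0.288 and *Pappa2* at 0.325 ± 0.230. In STZ-HFD, *Igfbp6* came after *Igfbp4* at 36.8 ± 8.18 CPM per kb against 46.3 ± 43.2, and the spreads of these neighbours overlapped. *Igfbp7* led in db/+ at 252 ± 90.5 CPM per kb and in db/db at 388 ± 391 (SD, n = 3), the latter mean resting on 1 library of 3. *Igfbp5* and *Igfbp6* were next in both db groups, at 87.5 ± 19.7 and 77.6 ± 13.7 CPM per kb in db/+ and 89.2 ± 11.8 and 104 ± 39.1 in db/db, and did not differ beyond their spread in either.

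**Figure D1:**
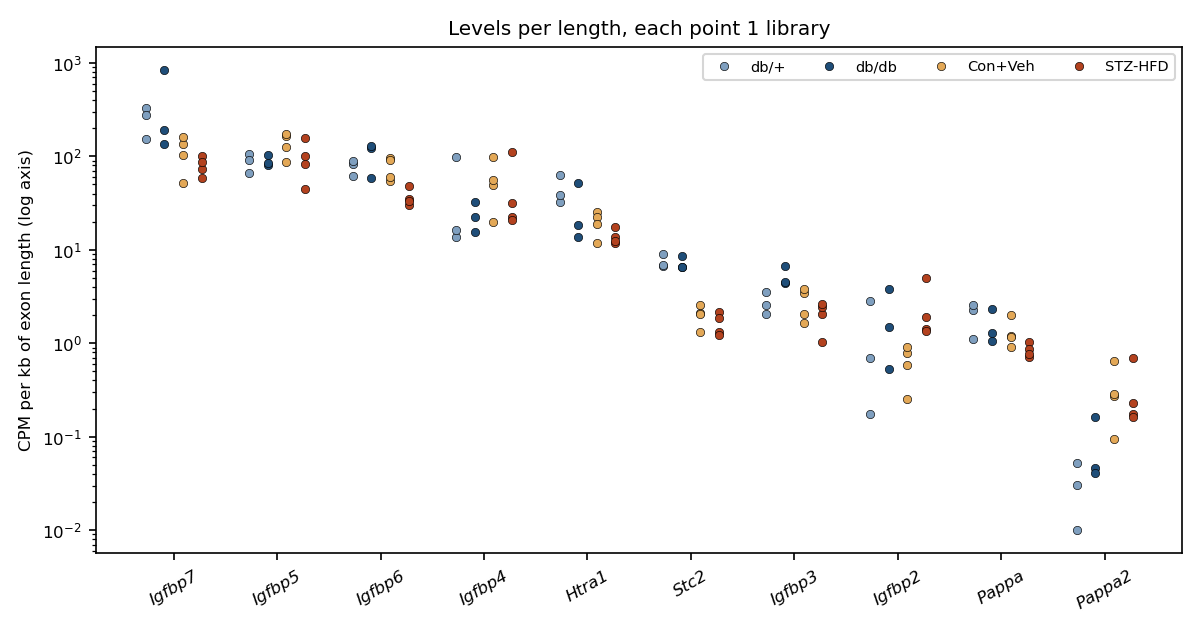
Level of each gene in CPM per kb of exon length (log axis), 1 point per library, coloured by group and ordered by level. The binding proteins *Igfbp4* to *Igfbp7* and the protease *Htra1* lie above the other 5 genes, with *Pappa2* lowest.

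Of the 10 genes, 1 passed the test in a comparison of a diabetic group with its control. *Igfbp6* was lower in STZ-HFD discs, and no gene of the set was called in db/db discs. Calls were made with limma (voomWithQualityWeights) and required a log2 fold change of 1 or more in size together with a Benjamini-Hochberg adjusted p under 0.05 over all 16915 genes. In STZ-HFD, 0 of 10 were called higher and 1 of 10 lower, where 1.3% and 1.31% of all genes were. In db/db, 0 of 10 were called higher and 0 of 10 lower, where limma called 1.23% and 0.432% of all genes. An unadjusted limma p under 0.05 was found for 2 of 10 in db/db (*Igfbp3* and *Htra1*), where 21.1% of all genes had one, and for 2 of 10 in STZ-HFD (*Igfbp5* and *Igfbp6*), where 17.9% had one. Of the 10 log2 fold changes, 9 lay below 0 in STZ-HFD with a median of -0.59, and 4 lay below 0 in db/db with a median of 0.12. Over all genes the medians were -0.04 in both comparisons, and the share of genes above 0 was 47.2% for STZ-HFD and 47.3% for db/db. With edgeR's quasi-likelihood test, 0 of the 10 genes were called in either comparison, and with DESeq2 1 was, *Igfbp6* in STZ-HFD.

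**Figure D2:**
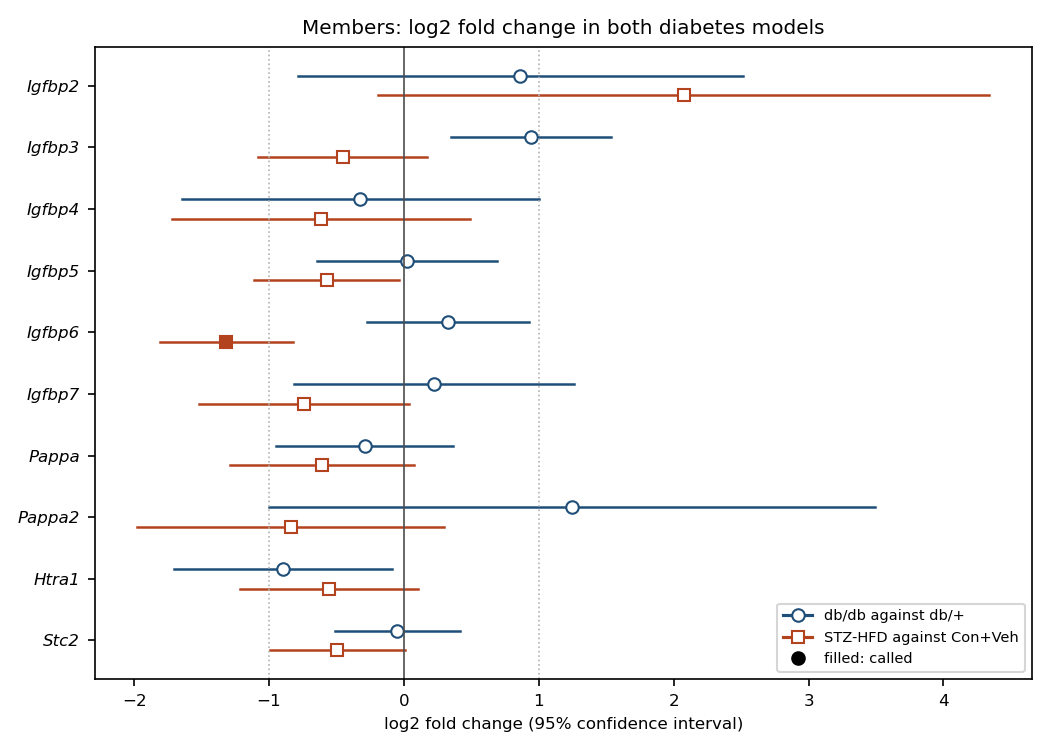
Log2 fold change of each gene with its 95% confidence interval from limma, for db/db against db/+ (circles) and STZ-HFD against Con+Veh (squares), with filled symbols for called genes and dotted lines at 1 and -1. *Igfbp6* in STZ-HFD, at -1.32, is the one filled symbol, and the widest intervals belong to *Igfbp2* and *Pappa2*.

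*Igfbp6* (ENSMUSG00000023046, chromosome 15 from 102144362 to 102149511 of GRCm38, plus strand) encodes a binding protein that prefers IGF2 to IGF1. Its levels were 61.1, 67.2, 108 and 101 CPM in Con+Veh replicates 1 to 4 and 33.8, 54.2, 38.9 and 36.7 CPM in STZ-HFD replicates 1 to 4. Every STZ-HFD library lay below every Con+Veh library, as was the case for 2.77% of all genes, with 54.2 CPM the highest STZ-HFD value and 61.1 CPM the lowest control value. The log2 fold change was -1.32 (SE 0.23, 95% interval -1.81 to -0.83), an estimated level 0.402 times that of the controls, with an adjusted p of 0.00824 by limma. This estimate uses the quality weights, which were 0.275, 0.462, 3.05 and 1.81 for Con+Veh replicates 1 to 4. Unweighted group means were 40.9 CPM in STZ-HFD and 84.2 CPM in Con+Veh. Counts of *Igfbp6* were 821 to 1575 per STZ-HFD library and 1858 to 3233 per Con+Veh library. In the other cohort *Igfbp6* stood at 91.5, 98.3 and 69.1 CPM in db/+ and 137, 65.6 and 144 CPM in db/db. The db groups overlapped, with 2 db/db libraries above and 1 below all db/+ libraries, and the log2 fold change was 0.33 (SE 0.29, adjusted p = 0.540 by limma).

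The response of *Igfbp6* differed between the models by 1.64 on the log2 scale (SE 0.37, adjusted p = 0.0339 by limma), and it was the 1 gene of 10 with such a difference, where 1.77% of all genes had one. This difference stayed above 0 in all 29 alternatives but kept an adjusted p under 0.05 in 8 of them. Leaving out db/db replicate 1 or 3, any one of the 3 db/+ libraries, or replicate 3 or 4 of Con+Veh or of STZ-HFD brought the difference to 1.44 to 1.77 with adjusted p-values of 0.0573 to 0.175 by limma. The fall in STZ-HFD lay below 0 in all 30 alternatives, from -1.84 to -0.54, and was called in 18. It was not called without Con+Veh replicate 3 (-1.13, adjusted p = 0.209 by limma), Con+Veh replicate 4 (-1.24, 0.0880), STZ-HFD replicate 3 (-1.28, 0.102) or STZ-HFD replicate 4 (-1.21, 0.0553). Calls over all genes in STZ-HFD fell in the same fits, from 220 higher and 221 lower. In the order given they were 3 and 14, 4 and 14, 3 and 15, and 64 and 100.

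Some markers of matrix-forming cells were called lower in STZ-HFD discs as well. By list, 2 of 7 annulus and tendon genes, 5 of 7 tested cartilage genes and 3 of 7 osteoblast genes were called lower by limma. No gene of these lists was called higher. Over all genes 1.31% were called lower and 1.3% higher. The annulus and tendon markers summed to 1900 to 3750 CPM in Con+Veh and 1050 to 3100 in STZ-HFD, ranges that overlapped, and the osteoblast markers to 628 to 1420 and 220 to 526, which did not overlap. Not every marker lay lower, since *Scx*, *Bglap* and *Dmp1* had log2 fold changes above 0, none of them called. With the mean log2 level of the annulus and tendon markers as a covariate, an alternative chosen after seeing the data, the log2 fold change of *Igfbp6* in STZ-HFD was -0.54 (adjusted p = 0.248 by limma), and with the cartilage markers, also added later, it was -1.39 (adjusted p = 0.283). These covariates also left few calls over all genes in STZ-HFD, 16 higher and 4 lower with the first and 3 and 0 with the other, against 220 and 221.

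**Figure D3:**
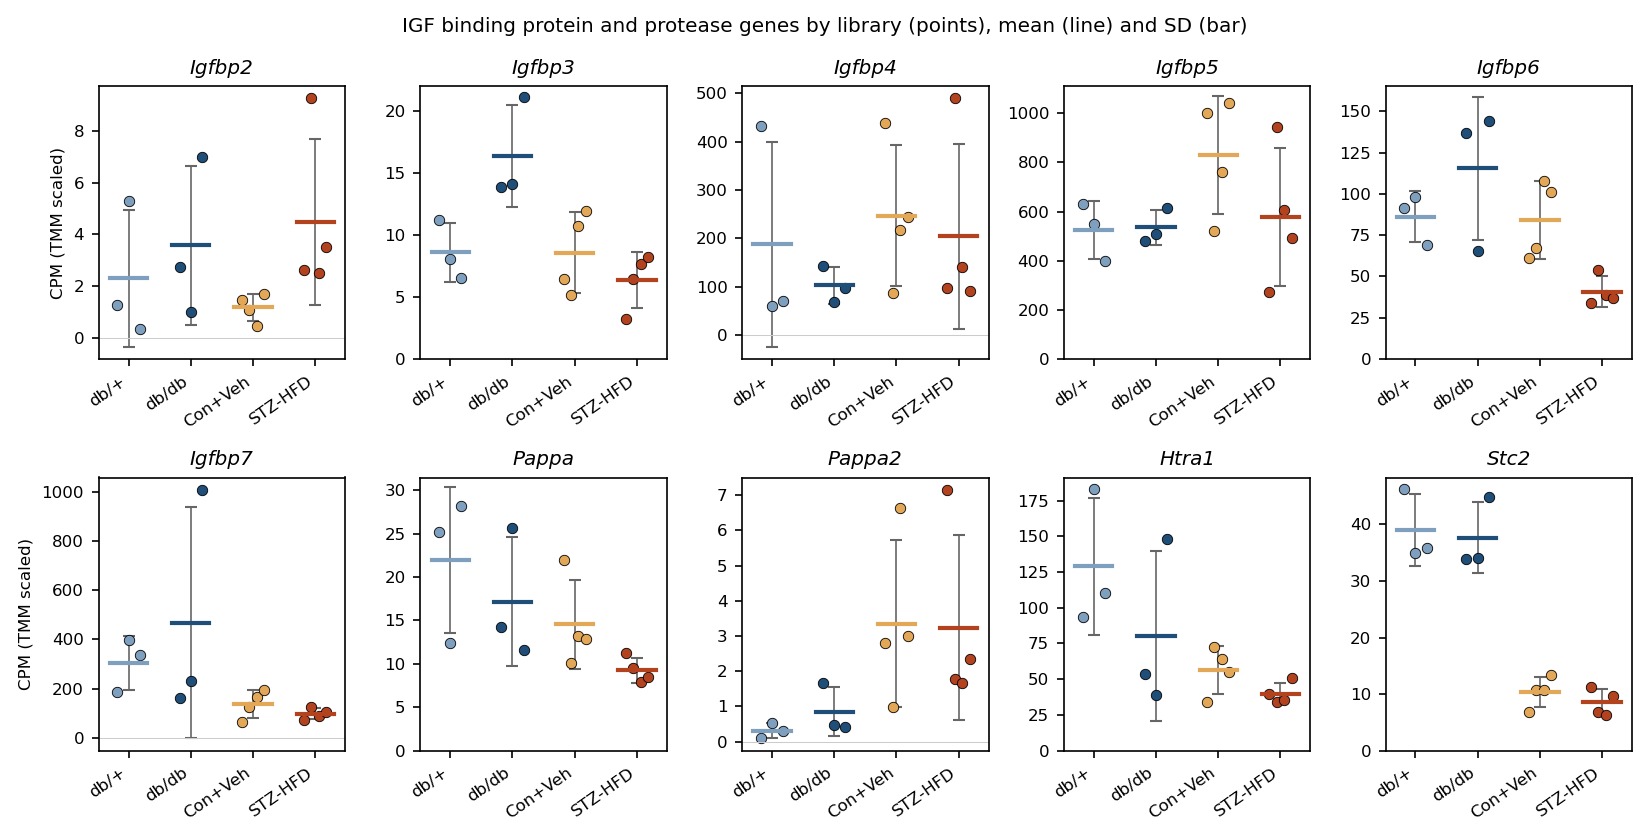
CPM (TMM scaled) of each gene in each library (points) with the mean (line) and SD (bar) of its group, 3 mice per db group and 4 per other group, on a scale of its own per gene. *Igfbp6* in STZ-HFD (33.8 to 54.2 CPM) lies below all Con+Veh points, *Igfbp3* in db/db (13.9 to 21.1 CPM) above all db/+ points, and single libraries stand high for *Igfbp4*, *Igfbp7* and *Pappa2*.

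*Igfbp3* (ENSMUSG00000020427, chromosome 11 from 7206086 to 7213923, minus strand) encodes the main IGF carrier of the circulation. Its levels were 13.9, 14.1 and 21.1 CPM in db/db and 11.2, 8.07 and 6.50 CPM in db/+. All db/db libraries lay above all db/+ libraries, which held for 14.1% of all genes. The level was 1.92-fold higher (log2 fold change 0.94, SE 0.28, 95% interval 0.35 to 1.53), with an adjusted p of 0.0799 by limma, so *Igfbp3* was not called. With the GC content trend of each library removed it was called (1.14, adjusted p = 0.0395 by limma), and with adipocyte markers as a covariate its log2 fold change was 0.40 (adjusted p = 0.742). That covariate left 0 genes called higher and 0 lower over all genes in db/db, against 208 and 73 without it. Adipocyte markers summed to 335 to 609 CPM in db/db and 215 to 462 in db/+. By limma, 3 of 7 were called higher, where 1.23% of all genes were. In the other cohort *Igfbp3* was found at 6.47, 5.15, 10.7 and 11.9 CPM in Con+Veh and 3.21, 6.46, 7.64 and 8.24 CPM in STZ-HFD, groups that overlapped (log2 fold change -0.46, SE 0.30, adjusted p = 0.456 by limma). The difference of the responses was 1.40 (SE 0.41, adjusted p = 0.0876 by limma) and did not pass the test.

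*Igfbp2* (ENSMUSG00000039323, chromosome 1 from 72824503 to 72852474, plus strand) encodes a binding protein found in many tissues and in serum. It was sparse, with 10 to 54 counts per Con+Veh library and 64 to 269 per STZ-HFD library. Levels were 1.47, 1.08, 0.470 and 1.68 CPM in Con+Veh and 2.63, 9.25, 2.52 and 3.51 CPM in STZ-HFD. Every STZ-HFD library lay above every control library, as did 1.97% of all genes, and STZ-HFD replicate 2 stood far above the other three. The log2 fold change of 2.07 had an SE of 1.08 (95% interval -0.19 to 4.34) and an adjusted p of 0.326 by limma. Its value under the alternatives ran from -0.15, with a skeletal muscle score as a covariate, to 4.89, with the annulus and tendon score, the one alternative in which it was called. In db/db the levels were 2.74, 0.991 and 6.98 CPM, against 1.27, 5.29 and 0.326 CPM in db/+. These groups overlapped over nearly their whole ranges, with a log2 fold change of 0.86 (SE 0.78, adjusted p = 0.558 by limma).

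*Igfbp5* (ENSMUSG00000026185, chromosome 1 from 72857932 to 72874884, minus strand) lies 5457 bases from *Igfbp2* and encodes a binding protein that adheres to matrix and bone mineral. Its mean CPM was the highest of the 10 genes in Con+Veh, with 999, 520, 760 and 1040 CPM. The STZ-HFD libraries held 272, 942, 605 and 492 CPM. The groups overlapped, and the log2 fold change of -0.57 (SE 0.26, 95% interval -1.11 to -0.03) had an adjusted p of 0.247 by limma. In the db cohort *Igfbp5* varied little, from 482 to 616 CPM in db/db and 398 to 631 in db/+, and the log2 fold change was 0.02 (SE 0.32, 95% interval -0.64 to 0.69), which changed sign without db/db replicate 3 (-0.08) or db/+ replicate 3 (-0.14). *Igfbp2* and *Igfbp5* thus had STZ-HFD log2 fold changes of opposite sign, neither of them called.

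*Igfbp4* (ENSMUSG00000017493, chromosome 11 from 99041244 to 99054392, plus strand) encodes the binding protein that PAPP-A cleaves. Most of its spread came from single libraries. In db/+ the levels were 432, 60.0 and 71.8 CPM, in db/db 144, 68.2 and 98.3 CPM, in Con+Veh 438, 87.1, 218 and 245 CPM, and in STZ-HFD 98.3, 489, 140 and 91.2 CPM. One library in each of db/+, Con+Veh and STZ-HFD stood at 432 CPM or more, and both pairs of groups overlapped. The log2 fold change was -0.32 in db/db (SE 0.63, adjusted p = 0.809 by limma) and -0.61 in STZ-HFD (SE 0.52, adjusted p = 0.592). Without db/+ replicate 1 the former was 0.60, and with each library left out in turn the latter stayed between -1.04 and -0.08.

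*Igfbp7* (ENSMUSG00000036256, chromosome 5 from 77349240 to 77408041, minus strand) encodes a secreted relative of the family that binds IGFs weakly and is abundant in vessels. Its levels were 163, 231 and 1010 CPM in db/db, 184, 397 and 335 CPM in db/+, 62.9, 125, 165 and 193 CPM in Con+Veh and 70.8, 123, 89.2 and 104 CPM in STZ-HFD. The value of 1010 CPM in db/db replicate 3 was the highest of any library, and without it the db/db log2 fold change of 0.22 (SE 0.49, adjusted p = 0.834 by limma) became -0.58. Without db/+ replicate 1 it was -0.08. In STZ-HFD the log2 fold change was -0.74 (SE 0.37, 95% interval -1.52 to 0.04, adjusted p = 0.305 by limma), and the groups overlapped. The gene overlaps *Polr2b* and *Gm34648* on the opposite strand, and since the strand setting of the counting was not stated, reads of these genes cannot be told apart where they overlap.

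The proteases were low apart from *Htra1*. *Pappa* (ENSMUSG00000028370, chromosome 4 from 65124174 to 65357509, plus strand) encodes PAPP-A, a metalloproteinase that cleaves IGFBP-4 and IGFBP-5 and frees IGF. Its levels were 22.0, 10.1, 13.2 and 12.8 CPM in Con+Veh and 11.2, 9.46, 7.86 and 8.47 CPM in STZ-HFD, where 3 of 4 libraries lay below all controls. The log2 fold change was -0.61 (SE 0.32, 95% interval -1.29 to 0.07, adjusted p = 0.339 by limma). The db groups overlapped, at 14.2, 25.6 and 11.6 CPM in db/db and 25.2, 12.4 and 28.2 CPM in db/+, with a log2 fold change of -0.29 (SE 0.31, adjusted p = 0.624 by limma).

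*Pappa2* (ENSMUSG00000073530, chromosome 1 from 158711727 to 158980490, minus strand) encodes the related pappalysin that cleaves IGFBP-3 and IGFBP-5. It was low in the db cohort, at 1.67, 0.474 and 0.424 CPM in db/db and 0.103, 0.539 and 0.311 CPM in db/+, where the lowest library had 5 counts. Levels in the other cohort were 2.80, 0.977, 6.63 and 2.99 CPM in Con+Veh and 7.15, 1.79, 1.68 and 2.35 CPM in STZ-HFD. Neither pair of groups separated. The log2 fold changes of 1.24 in db/db (SE 1.07, adjusted p = 0.530 by limma) and -0.84 in STZ-HFD (SE 0.54, adjusted p = 0.448) had wide intervals, -1.0 to 3.49 and -1.98 to 0.30, and the latter was 0.08 without Con+Veh replicate 3. The gene overlaps *1600012P17Rik* on the same strand, so its counts are uncertain.

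*Htra1* (ENSMUSG00000006205, chromosome 7 from 130936111 to 130985660, plus strand) encodes a secreted serine protease that cleaves IGFBPs and matrix proteins. Its levels were 53.3, 39.2 and 148 CPM in db/db and 93.5, 183 and 110 CPM in db/+. In db/db, 2 of 3 libraries lay below all db/+ libraries while db/db replicate 3 lay among them, and the log2 fold change was -0.89 (SE 0.38, 95% interval -1.70 to -0.09) with an adjusted p of 0.193 by limma. With the annulus and tendon score as a covariate, chosen after seeing the data, it was called at -1.22. The same covariate raised the calls over all genes in db/db to 560 higher and 362 lower, from 208 and 73. In Con+Veh the levels were 34.1, 72.8, 64.4 and 54.7 CPM and in STZ-HFD 39.5, 33.9, 35.7 and 50.6 CPM, overlapping groups with a log2 fold change of -0.56 (SE 0.31, adjusted p = 0.374 by limma). The sign of the log2 fold change was below 0 in both models and in every alternative run. *Htra1* overlaps *Fgfr2* on the opposite strand, with the same limit on its counts as for *Igfbp7*.

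*Stc2* (ENSMUSG00000020303, chromosome 11 from 31357307 to 31370074, minus strand) encodes stanniocalcin-2, a secreted inhibitor of the pappalysins. Levels were 33.9, 34.1 and 44.9 CPM in db/db and 46.3, 34.9 and 35.9 CPM in db/+, which overlapped. The log2 fold change was -0.05 (SE 0.22), and its 95% interval of -0.51 to 0.41 excluded a change of 1 in either direction (adjusted p = 0.924 by limma). It changed sign without db/db replicate 1 (0.02), db/db replicate 2 (0.01) or db/+ replicate 1 (0.10). In the other cohort the levels were 6.82, 10.8, 10.7 and 13.3 CPM in Con+Veh and 11.3, 6.77, 6.37 and 9.63 CPM in STZ-HFD, also overlapping, with a log2 fold change of -0.49 (SE 0.24, 95% interval -0.99 to 0.01, adjusted p = 0.286 by limma).

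The rest of the IGF axis was read from 3 further lists. Of the ligands, receptors and carrier subunits, 7 of 8 were tested and 0 were called in either model. *Lrp1* of this list came close in STZ-HFD, at a log2 fold change of -0.97 (SE 0.25, adjusted p = 0.041 by limma). It fell short of the minimum on the fold change, its libraries overlapped, and it was called in 2 of 30 alternatives. Of the other binding and IGFBP-related proteins, 7 of 10 were tested, with 1 called higher in db/db and none called in STZ-HFD. Of the other proteases and inhibitors, 9 of 12 were tested, with 0 called in db/db and 1 called lower in STZ-HFD. Over all genes the shares called higher and lower were 1.23% and 0.432% in db/db and 1.3% and 1.31% in STZ-HFD. The median log2 fold changes of these lists were 0.13, -0.32 and -0.13 in db/db and -0.28, -0.54 and -0.64 in STZ-HFD.

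The ligand *Igf1* stood at 177, 112 and 115 CPM in db/db and 74.1, 75.9 and 59.0 CPM in db/+. All db/db libraries were higher, as for 14.1% of all genes, with a log2 fold change of 0.91 (SE 0.26, adjusted p = 0.0738 by limma). In the other cohort it was found at 125, 175, 192 and 153 CPM in Con+Veh and 74.0, 87.5, 88.4 and 145 CPM in STZ-HFD. There, 3 of 4 STZ-HFD libraries lay below all controls, and the log2 fold change was -0.74 (SE 0.22, adjusted p = 0.0690 by limma). Neither response was called, while their difference of 1.64 (SE 0.34) passed the test with an adjusted p of 0.0266 by limma, and it did so in 16 of 29 alternatives. *Igf2*, the ligand that IGFBP-6 prefers, had log2 fold changes of 0.63 in db/db (SE 0.32, adjusted p = 0.265 by limma) and -0.76 in STZ-HFD (SE 0.35, adjusted p = 0.261). The signalling receptor *Igf1r* was at 137 CPM in db/+ and 111 in Con+Veh on average and had log2 fold changes of 0.13 and -0.28, and the clearance receptor *Igf2r* had -0.39 and 0.21, with adjusted p-values by limma of 0.317 to 0.810 over these 4 tests.

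The called gene among the IGFBP-related proteins was *Ccn3*, which encodes a matricellular protein of the CCN family. Its levels were 158, 62.4 and 139 CPM in db/db and 43.5, 45.6 and 22.8 CPM in db/+. All db/db libraries lay above all db/+ libraries, again as for 14.1% of all genes, and the log2 fold change was 1.59 (SE 0.35, adjusted p = 0.0322 by limma), called in 21 of 30 alternatives. In STZ-HFD it was -0.64 (SE 0.29, adjusted p = 0.253 by limma), and the responses differed by 2.23 (SE 0.46, adjusted p = 0.0251), a difference that passed the test in 17 of 29 alternatives, with values from 1.17 to 3.89. *Htra3*, a protease related to *Htra1*, was found at 54.2, 33.6, 76.9 and 83.4 CPM in Con+Veh and 15.1, 39.4, 26.6 and 35.9 CPM in STZ-HFD. It was called lower in STZ-HFD at -1.26 (SE 0.26, adjusted p = 0.0174 by limma) although 2 STZ-HFD libraries lay above the lowest control, and it was called in 16 of 30 alternatives. *Stc1*, the other stanniocalcin, was also among the 14.1% of genes higher in all db/db libraries, at 9.28, 11.6 and 9.0 CPM against 3.57, 3.15 and 4.80 CPM, with an adjusted p of 0.0531 by limma at a log2 fold change of 1.41 (SE 0.36).

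**Figure D4:**
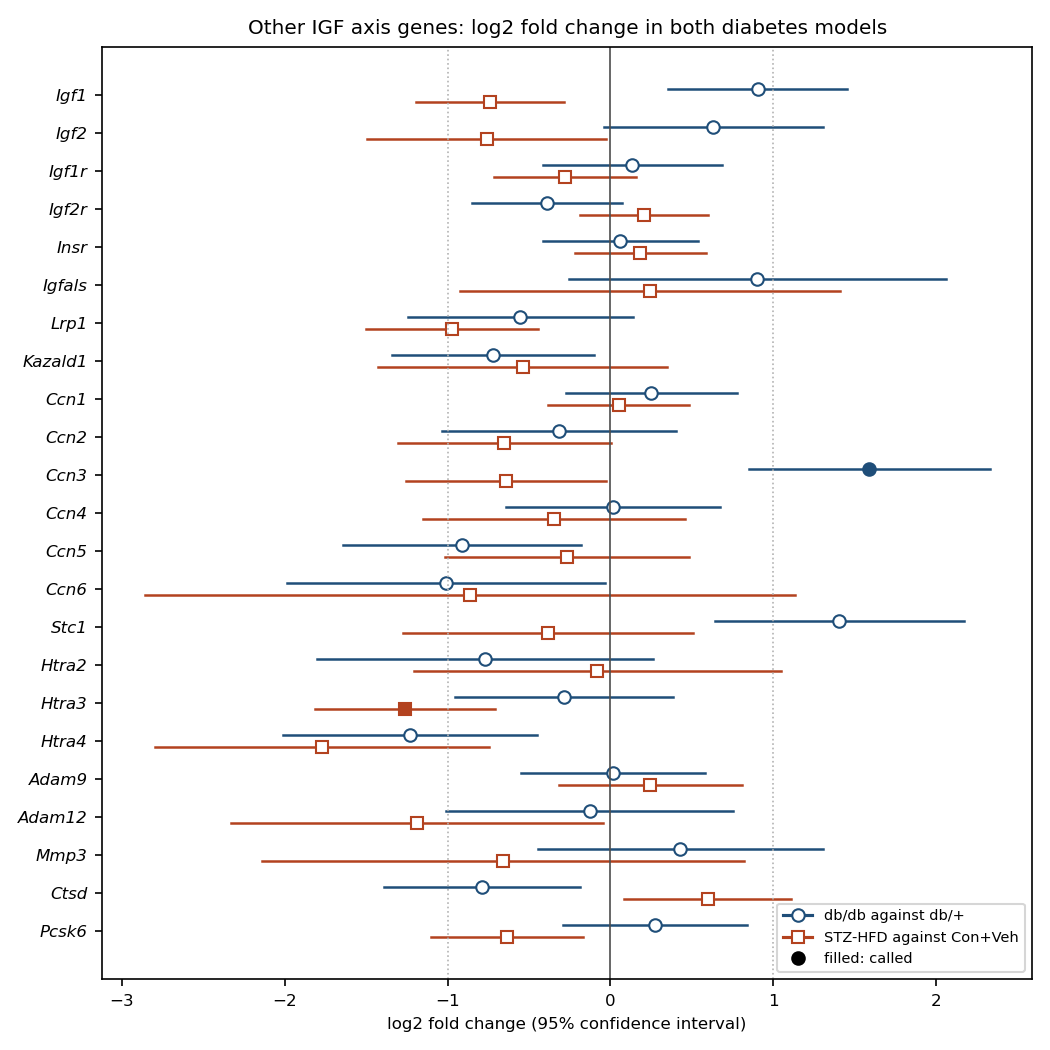
Log2 fold change with its 95% confidence interval from limma of the tested genes of the 3 other IGF lists, for db/db against db/+ (circles) and STZ-HFD against Con+Veh (squares), filled where called, with dotted lines at 1 and -1. *Ccn3* in db/db (1.59) and *Htra3* in STZ-HFD (-1.26) are filled, and *Igf1* and *Igf2* lie right of 0 in db/db and left of it in STZ-HFD.

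Counts of *Igfals* and *Igfbp1* were low in the disc. *Igfals*, the acid-labile subunit that joins IGF and IGFBP-3 in serum, had 12 to 82 counts per library, and *Igfbp1*, a liver product, had 0 counts in every db/db library and at most 16 in any library, in STZ-HFD replicate 1. *Igfbp1* did not pass the minimum on low counts and was not tested.

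As a description, the protein-coding genes whose log2 CPM ran most like each member over the 14 libraries were sought among 13621 genes. *Igfbp6* was closest to *Nucb2* (Pearson r = 0.956) and *Angptl7* (0.949), *Igfbp3* to *Cst3* (0.879) and *Ywhab* (0.872), and *Igfbp2* to the smooth muscle genes *Actg2* (0.910) and *Cnn1* (0.892). *Igfbp4* ran with *Myh9* (0.947) and *Zbtb48* (0.933), *Igfbp5* with *H2-K1* (0.889) and *Elf2* (0.882), and *Igfbp7* with *Selenon* (0.956) and *Marveld1* (0.947). *Pappa* ran with *Hivep3* (0.942) and *Zfp618* (0.906), *Pappa2* with *Rarb* (0.932) and *Xpnpep2* (0.928), *Htra1* with *Tmbim1* (0.929) and *Ndufa4l2* (0.926), and *Stc2* with *Crispld1* (0.984) and *Adgrg6* (0.981). The 14 points share the cohort and group differences, library depth and tissue makeup, and no test was made. Smooth muscle and pericyte markers, which include *Cnn1*, summed to 888 to 2350 CPM in Con+Veh and 766 to 3150 in STZ-HFD, and their part in the *Igfbp2* values was not tested.

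**Figure D5:**
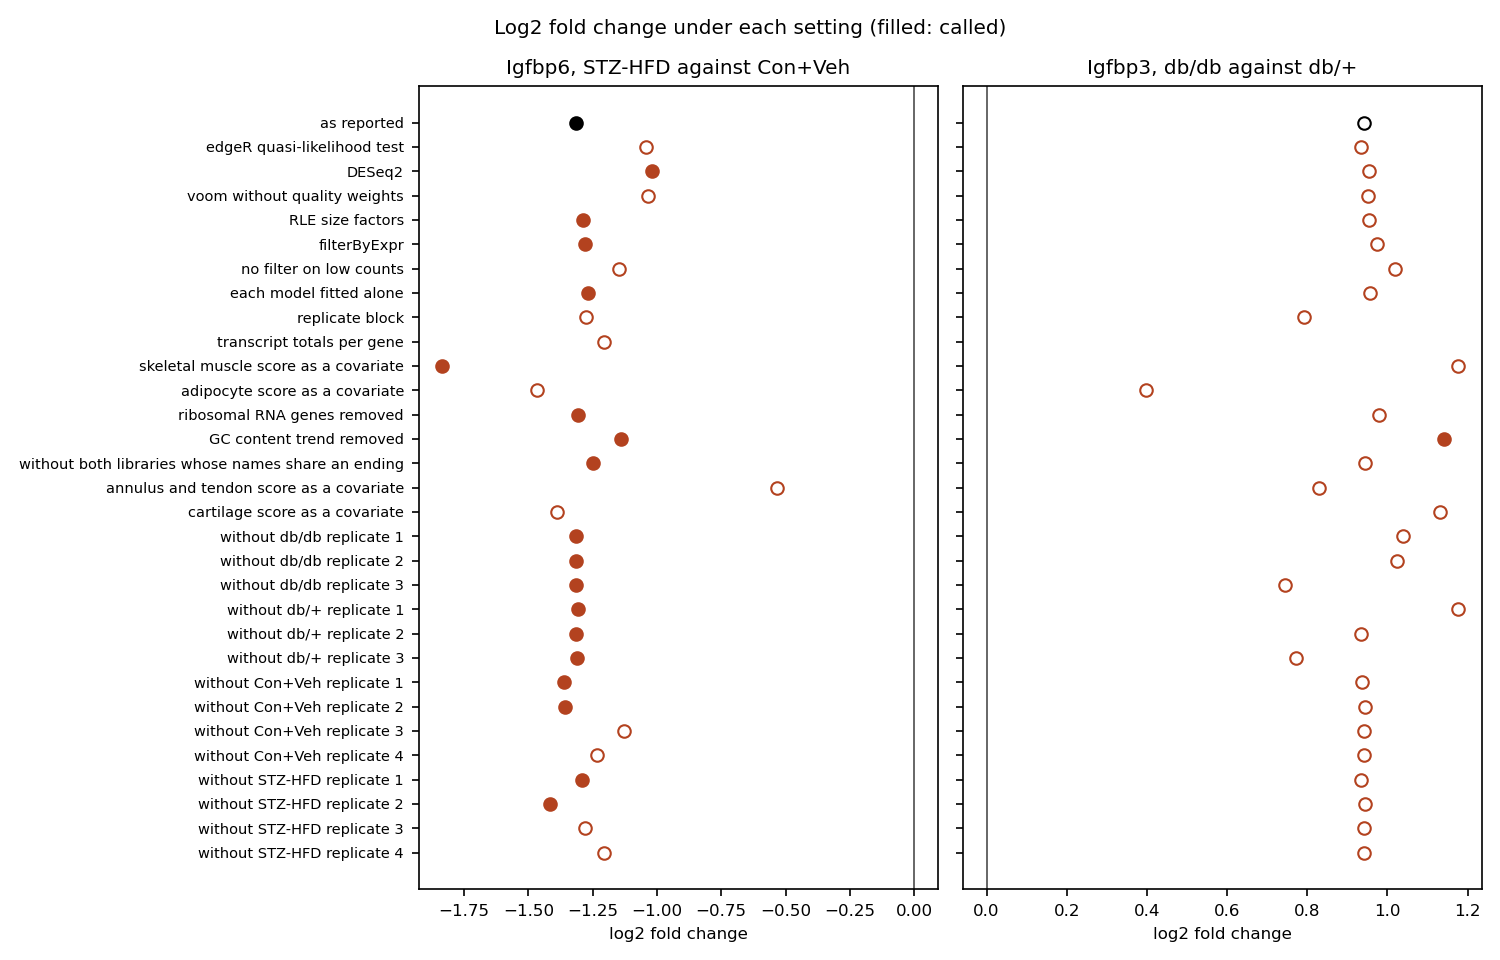
Log2 fold change of *Igfbp6* in STZ-HFD against Con+Veh (left) and of *Igfbp3* in db/db against db/+ (right) under each alternative and without each library, filled where called and black for the reported value. *Igfbp6* stays below 0 throughout, from -1.84 to -0.54, and *Igfbp3* above 0, from 0.40 to 1.18, filled once.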

How the data were processed

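RNA from pooled tail discs of 14 mice was amplified with the SeqPlex kit and sequenced. The authors aligned reads with STAR 2.7.9a1, per the submitters' processing notes, and deposited whole-number gene counts from featureCounts 2.0.32 without normalization, on GRCm38. The authors also deposited estimated counts per transcript from Salmon 1.5.23, which were used for transcript shares and, summed per gene and rounded, for 1 alternative. The strand setting was not given in the sources used here. Each library is a separate mouse, all 14 were mapped from the labels, and no value column lacked a sample.

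With R 4.3.3, limma 3.58.1 and edgeR 4.0.16, genes exceeding 1 CPM in 3 or more libraries were fitted with TMM factors and voomWithQualityWeights, the method named by the study, with 1 mean for each of 4 groups and contrasts within each cohort. P-values were adjusted by Benjamini-Hochberg over all genes tested. Calls needed a log2 fold change of 1 or more in size and an adjusted p under 0.05, with no minimum for the difference between models. The scripts were tested on simulated data. Alternatives included DESeq2 1.42.0, edgeR's quasi-likelihood test, no quality weights, RLE size factors, other filters on low counts, each model alone, a replicate block, transcript totals, muscle or adipocyte scores as covariates, removal of ribosomal RNA genes or of the GC trend, no minimum on the fold change, and leaving out libraries. The removal took genes annotated as ribosomal RNA, a narrower set than the one counted in the library shares. Annulus and tendon or cartilage scores as covariates were added after seeing the data.

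Members, lists and tests were chosen with earlier results of these data known. Named were all members, *Igf1*, *Igf2*, *Igf1r*, *Igf2r*, *Igfals*, *Igfbp1*, *Stc1*, listed pathway genes called in either model, and the 2 genes most like each member. *Lrp1* was named for its adjusted p in STZ-HFD. Positions and lengths came from GENCODE M21, and promoter sequences from RefSeq.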

Additional observations from a re-analysis of the deposited data

Results flagged for a closer look

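In 20 groups of 4 libraries, the highest or lowest library was compared with its group's range on unlogged CPM. A library far from the others was found in 3 groups. The cutoff gives about 1 in 20 by chance for normally distributed values, which was not tested for these CPM. *Igfbp2* was at 9.25 CPM in STZ-HFD replicate 2, against 2.52 to 3.51 CPM in the other 3 libraries of the group. In the same library *Igfbp4* was at 489 CPM, against 91.2 to 140 CPM in the others. *Pappa2* was at 7.15 CPM in STZ-HFD replicate 1, the shallowest library, against 1.68 to 2.35 CPM.

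The responses of 3 genes differed between the models by the test of the difference itself. They were 1 of 10 members and 1 of 7 tested ligands, receptors and carrier subunits. The third was 1 of 7 tested genes of the other binding proteins, against 0 of 9 of the other proteases and inhibitors. Over all genes 1.77% had such a difference. The third gene, *Ccn3*, was named because it was called in db/db, so its difference is not separate from that call. *Igfbp6* differed by 1.64 on the log2 scale (adjusted p = 0.0339 by limma), between 0.33 in db/db and -1.32 in STZ-HFD. *Igf1* also differed by 1.64 (adjusted p = 0.0266 by limma), between 0.91 and -0.74. *Ccn3* differed by 2.23 (adjusted p = 0.0251 by limma), between 1.59 and -0.64, and passed in 17 of 29 alternatives. The models differ in genotype, age, diet and treatment, and these cannot be told apart.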

How the results depend on the processing

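For *Igfbp6* in STZ-HFD the direction held in every alternative, but the call was lost with edgeR's quasi-likelihood test (-1.04, adjusted p = 0.179), voom without quality weights (-1.03, 0.165), no filter on low counts (-1.15, 0.142), transcript totals (-1.21, 0.0647) and an adipocyte covariate (-1.47, 0.150), as with both covariates added later. In these 0 members were called lower, and leave-one-out counts ran from 0 to 1. The member whose response differed between the models fell to 0 with these tools, filters and covariates (not the annulus and tendon score, with which 1 other passed), with DESeq2, filterByExpr, a muscle covariate and without both libraries whose names share an ending, and from 1 to 0 in 9 of 14 leave-one-out fits. Over all genes edgeR called 0 higher and 0 lower in db/db and 6 and 23 in STZ-HFD, against 208 and 73, and 220 and 221. In STZ-HFD, voom without quality weights called 3 higher and 16 lower, and the adipocyte covariate left 1 and 2. One member each was called higher in db/db with the GC trend removed (*Igfbp3*) and, with the annulus and tendon score, lower in db/db (*Htra1*) and higher in STZ-HFD (*Igfbp2*). The replicate number as a block left 0 members called, with *Igfbp6* in STZ-HFD at -1.28 (adjusted p = 0.0890 by limma), and turned *Igfbp5* in db/db to -0.042. Same-numbered libraries are different mice, and the labels state no pairing. Their deviations correlated at -0.28 to 0.192, which over so few libraries cannot show whether any shared a litter or batch. Uncalled values changed sign as follows. *Pappa2* in STZ-HFD was 0.148 without quality weights and 0.115 with the annulus and tendon score, which also gave *Igfbp2* -0.082, *Igfbp5* -0.04 and *Igfbp7* -0.171 in db/db and *Igfbp4* 0.52 in STZ-HFD. *Stc2* in db/db was 0.03 without a filter, 0.049 from transcript totals and 0.145 with the cartilage score, with which *Igfbp5* in db/db was -0.09 and *Igfbp7* in STZ-HFD 0.298. The muscle score gave *Igfbp2* -0.153 and *Pappa* 0.081 in STZ-HFD and *Igfbp4* 0.45 and *Igfbp7* -0.362 in db/db, and removal of the GC trend gave *Igfbp4* 0.011 in db/db. Leave-one-out ranges that crossed 0 were -0.046 to 2.14 (*Igfbp2*), -0.858 to 0.603 (*Igfbp4*), -0.142 to 0.21 (*Igfbp5*), -0.583 to 0.731 (*Igfbp7*) and -0.184 to 0.1 (*Stc2*) in db/db and -1.014 to 0.083 for *Pappa2* in STZ-HFD. Without a filter the median of all genes was -0.18 in db/db and -0.36 in STZ-HFD. *Igfbp2*, *Igfbp3* and *Igfbp4* got no value from transcript totals, since a transcript of each is not used here, and depth limits *Pappa2* and *Igfbp2* most.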

Other observations

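Levels of some members lay far apart between the cohorts. *Stc2* was at 33.9 to 46.3 CPM in the 6 db libraries and 6.37 to 13.3 CPM in the 8 others, and the groups of one cohort did not overlap those of the other. The share of all genes that separated the cohorts in this way was not counted, so the gap cannot be called particular to *Stc2*. The summed annulus and tendon markers also lay apart, at 12200 to 23100 CPM in the db cohort and 1050 to 3750 CPM in the other. *Col1a1* had the highest mean of that list in every group, 12400 CPM in db/db, 16600 in db/+, 1840 in Con+Veh and 1270 in STZ-HFD. Not every marker followed the sum. Mean *Scx* was 1.78 CPM in db/db and 1.92 in db/+, against 2.88 in Con+Veh and 3.14 in STZ-HFD. Mean *Mkx* was 22.4 and 21.1 CPM against 22.7 and 10.3 in the same order. The cohorts differ in more than 1 respect, the age and treatment of the mice among them, which cannot be told apart, and the part of these markers was not tested.

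Transcript estimates gave a further view of single members. *Igfbp6* and *Pappa* have 1 annotated transcript each and so no shares to compare. For *Igfbp7*, *Igfbp7-201* took 94.4% to 100% of the gene's estimated counts. For *Igfbp5*, the non-coding *Igfbp5-202* took 7.4% to 26.7% in db/db, 0.6% to 14.4% in db/+, 9.6% to 29.5% in Con+Veh and 0% to 12.7% in STZ-HFD. The estimated counts of *Igfbp4-204* were 8343.4 in db/+ replicate 1, 5714.3 in Con+Veh replicate 1 and 5157.1 in STZ-HFD replicate 2. These are the 3 libraries in which the gene counts of *Igfbp4* were 432 CPM or more. In db/db replicates 2 and 3 the estimate was 0, while the gene counts of *Igfbp4* there were 4752 and 6256. *Igfbp4-201* is not among the transcripts used, so that 0 cannot be read as absence of coding *Igfbp4* transcripts.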
